A study of Mus musculus with 18 samples.

Results

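The 9 laminin chain genes Lama1, Lama2, Lama3, Lama4, Lama5, Lamb1, Lamb2, Lamb3 and Lamc1 were followed in differentiating mouse embryonic stem cells with and without thalidomide. They were taken by gene symbol from the 22180 genes with a named probe set, and each of the 9 had a single probe set. The cells were C57BL/6 embryonic stem cells that formed embryoid bodies, free-floating aggregates in which pluripotency is lost and the germ layers begin to form. Treatment began at day 3 of the embryoid body stage, with thalidomide at 0.25 mM in the exposed groups and DMSO at 0.25% as the vehicle control, and RNA was taken 24, 48 and 72 h later. Each of the 6 groups had 3 arrays, which the labels call biological replicates, so 18 arrays were compared. The series text calls the controls unexposed, whereas the treatment protocol gives them vehicle, and the source labels of the controls give their hours since the bodies formed. They are read here as vehicle controls of matched hours. Titles of the 9 control arrays and of the 3 exposed arrays at 24 h carry a re-analysis tag that the 6 exposed arrays at 48 and 72 h lack. Whatever this tag marks cannot be told apart from exposure at 48 and 72 h. Nor can it be told apart from time in the exposed course between 24 h and either later time. Changes of the exposure effect over those spans share this limit. The material is whole embryoid bodies of a single strain, so a change in the share of a cell type and a change in RNA per cell cannot be told apart.

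Laminins are secreted trimers of an alpha, a beta and a gamma chain, and they form the first network of a basement membrane. Nidogens, perlecan and agrin link that network to type IV collagen, and integrins, dystroglycan and Bcam bind it at the cell surface. The trimer of the Lama1, Lamb1 and Lamc1 products is the main laminin of the early embryo, made above all by primitive endoderm and its derivatives, and embryoid bodies lay it down beneath their outer endoderm layer. Lama5 is a broadly used epithelial chain, Lama4 is the chain of vessel walls and mesenchyme, Lama2 is the chain of muscle and peripheral nerve, and Lama3 and Lamb3 belong to the laminin that anchors stratified epithelia. Lamb2 can replace Lamb1 as the beta chain, for example at neuromuscular junctions and in the glomerulus.

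Promoter sequence from the RefSeq table of assembly GRCm38.p6 was read for 5 of the 9 genes. No window was given for Lama1, Lama4 and Lamc1, and Lama3 was not read because its chromosome was left out. The 250 bases before the annotated start are shown, 5′ to 3′ on the gene's own strand, for a chain that rose on exposure (Lamb1), a chain that fell over time (Lama5) and a chain that rose over time (Lamb2). Lamb1 lies at chr12:31265043-31265292 on the plus strand, Lama5 at chr2:180225860-180226109 on the minus strand and Lamb2 at chr9:108479612-108479861 on the plus strand. Capitals mark GC boxes, the letters GGGCGG or, on the other strand, CCGCCC.
Lamb1: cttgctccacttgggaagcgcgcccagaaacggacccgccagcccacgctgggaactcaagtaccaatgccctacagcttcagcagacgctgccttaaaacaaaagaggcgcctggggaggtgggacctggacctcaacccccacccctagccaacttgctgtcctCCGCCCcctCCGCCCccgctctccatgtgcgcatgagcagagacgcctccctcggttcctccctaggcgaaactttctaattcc
Lama5: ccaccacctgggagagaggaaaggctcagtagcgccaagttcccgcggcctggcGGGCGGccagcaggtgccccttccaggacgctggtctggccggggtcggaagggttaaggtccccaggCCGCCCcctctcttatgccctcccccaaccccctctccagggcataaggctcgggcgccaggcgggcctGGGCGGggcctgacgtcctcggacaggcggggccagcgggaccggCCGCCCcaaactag
Lamb2: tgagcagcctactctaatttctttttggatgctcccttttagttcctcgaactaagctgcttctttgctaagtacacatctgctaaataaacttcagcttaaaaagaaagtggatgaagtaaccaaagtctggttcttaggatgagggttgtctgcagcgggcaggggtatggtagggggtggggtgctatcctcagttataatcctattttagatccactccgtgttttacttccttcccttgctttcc
The Lamb1 window held 2 GC boxes, the Lama5 window held 4 and the Lamb2 window held 0. Of 32851 RefSeq windows of the same length, 32.7% held at least 1 GC box. The GATA letters TGATAA and AGATAA, the SOX letters AACAAT and the TATA letters TATAAA, each read on both strands, occurred 0 times in these 3 windows and in those of Lama2 and Lamb3. Among all windows, 7.94%, 9.99%, 9.42% and 12.4% held these letters, in that order. A match of letters is no measure of binding, and these windows were not tested against the expression values.

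Values are log2 signals from the authors' robust multi-array average, so a difference of 1 is a doubling. They rank a gene against itself across arrays and do not compare 1 gene with another. Arrays of the same group correlated at r = 0.992 to 0.996 across genes. Nanog, a pluripotency factor, ran from 8.93 to 9.35 in the control arrays at 24 h and from 4.45 to 5.06 in those at 72 h. In exposed replicate 3 at 72 h, markers of heart muscle summed to 950 linear signal units, against 2288 and 2102 in the other 2 exposed arrays and 3482 to 3501 in the controls. Its pluripotency markers summed to 1301, against 847 and 888 in the other 2 exposed arrays and 708 to 799 in the controls. Sox2 had the largest share of this sum. It ran from 9.13 to 9.89 in these exposed arrays and from 8.80 to 9.05 in these controls. Its control mean was 7.92 at 24 h and 8.96 at 72 h, so Sox2 did not fall with time as Nanog did. Neural ectoderm markers summed to 640 in exposed replicate 3, against 451 and 395 in replicates 1 and 2 and 268 to 378 in controls. Values at 72 h that moved by over 1.5 times without this array are given with and without it, an alternative extended after seeing the data. Tests are limma's across all 22180 genes with Benjamini-Hochberg adjustment, and a gene rose or fell only where the adjusted p was under 0.05.

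At 24 h, the 3 chains of the embryonic trimer rose on thalidomide: Lama1 and Lamc1 by 1.42-fold each and Lamb1 by 1.25-fold. These were the only 3 of the 9 laminin genes past the threshold, all upward, where 1.42% of all genes rose and 5.43% fell. The median change of the 9 genes was 0.13, against -0.01 over all genes. In 5 of the 9 genes (Lama1, Lama2, Lama5, Lamb1 and Lamc1) every exposed array lay above every control array, as in 9.23% of all genes.

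Lama1, the alpha chain of the embryonic trimer, read 9.38, 9.49 and 9.50 in the control arrays at 24 h and 9.85, 9.92 and 10.11 in the exposed arrays. The lowest exposed array was thus above the highest control. The group levels were 9.46 ± 0.069 (SD, n = 3) and 9.96 ± 0.13 (SD, n = 3), a difference of 0.50 ± 0.13 (SE) with an adjusted p of 0.0338.

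Lamb1, its beta chain, read 10.06, 10.11 and 10.16 in control arrays and 10.41, 10.37 and 10.52 in exposed arrays at 24 h. The groups were again apart, with a narrow spread inside each. The difference was 0.32 ± 0.079 (SE), with an adjusted p of 0.0219.

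Lamc1, the gamma chain shared by most laminins, read 9.57, 9.71 and 9.76 in controls and 10.14, 10.13 and 10.28 in exposed arrays at 24 h. All 3 exposed arrays exceeded the controls by more than the controls' own range. Its difference of 0.50 ± 0.12 (SE) had an adjusted p of 0.0162. The 3 calls were close to the threshold: Lama1 passed in 6 of 14 alternative analyses, Lamb1 in 9 and Lamc1 in 11, with changes of 0.43 to 0.56, 0.28 to 0.37 and 0.45 to 0.56. Leaving out any 1 of the 6 arrays ended the call of Lama1 (adjusted p of 0.0603 to 0.117), and the count of 3 became 0 without control replicate 1 or exposed replicate 3, 1 without control replicate 3 or exposed replicate 1, and 0 when only the 6 arrays of 24 h entered the fit.

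The other alpha and beta chains did not pass at 24 h. Lama5 read 8.32, 8.36 and 8.36 in controls and 8.48, 8.47 and 8.49 on exposure, groups that did not overlap, and its difference of 0.13 had a 95% confidence interval of -0.01 to 0.27 (adjusted p = 0.260). Lama4 was the member with the most negative value at 24 h, at -0.18 (adjusted p = 0.503). For Lama2, Lama3 and Lamb3 the differences were 0.09, 0.10 and 0.14. Lamb2, the alternative beta chain, stood at 6.33 ± 0.12 (SD, n = 3) in controls and 6.32 ± 0.13 (SD, n = 3) on exposure, with an interval of -0.18 to 0.18. A difference of the size seen for Lamb1 lies outside that interval.

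**Figure D1:**
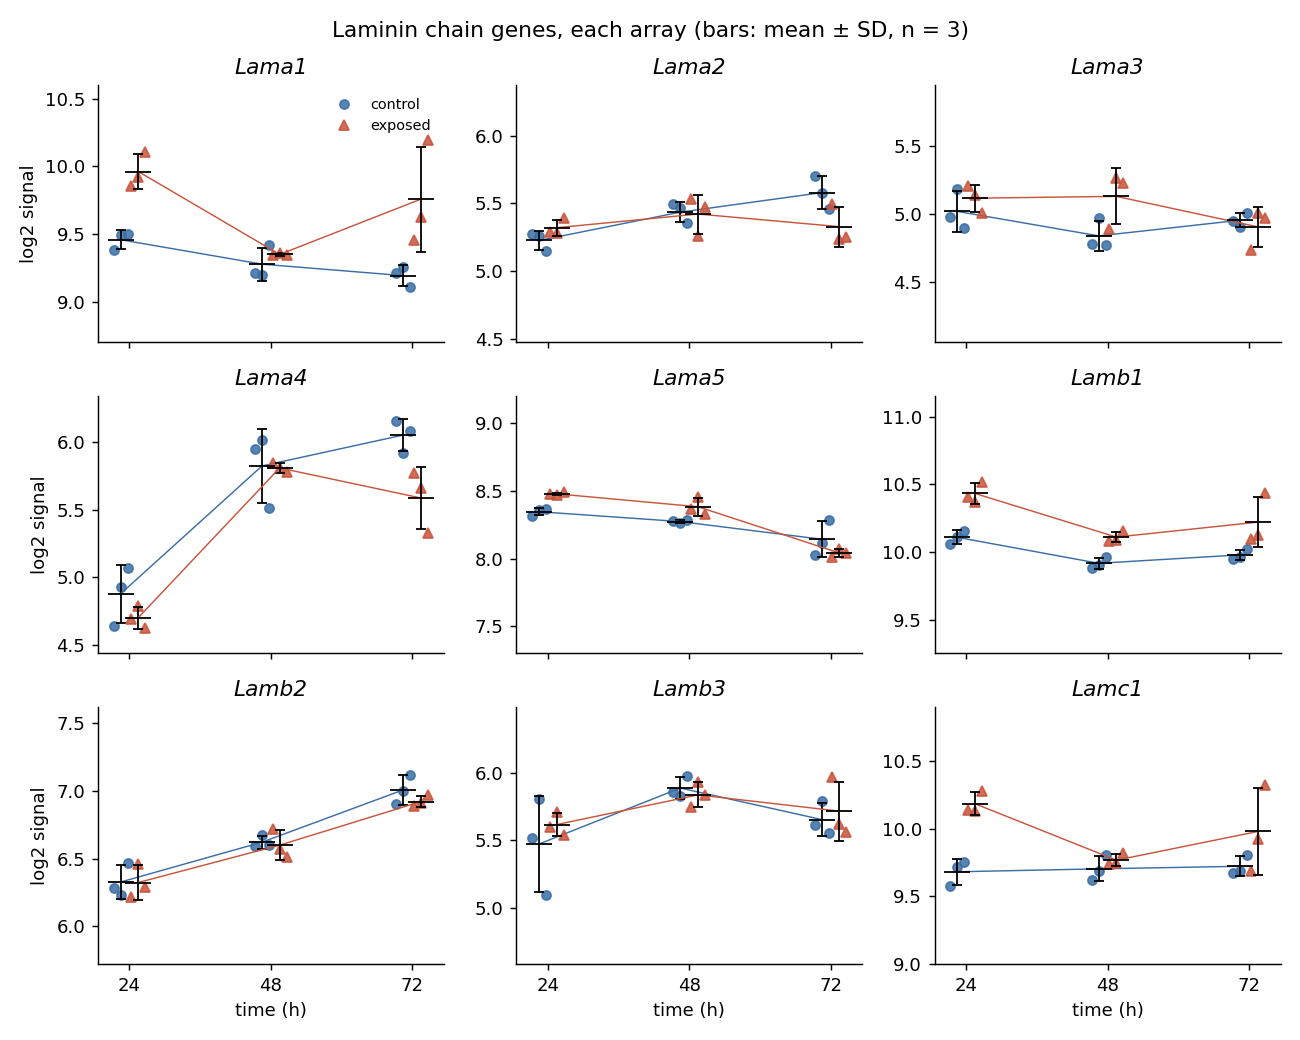
Log2 signal (y axis) of each laminin gene against time in hours (x axis), with control arrays as circles, exposed arrays as triangles, black bars for the mean ± SD of 3 arrays, and lines joining the means. The y axes span the same range of log2 units at different offsets. The exposed arrays of Lama1, Lamb1 and Lamc1 stand above the controls at 24 h, whereas Lama4 and Lamb2 are higher at 72 h than at 24 h in both courses.

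At 48 h, 0 of the 9 laminin genes passed limma's threshold, where 6.08% of all genes did. Of the embryonic trimer, Lama1 and Lamc1 had overlapping groups. Lama1 read 9.21, 9.20 and 9.42 in controls and 9.34, 9.36 and 9.35 on exposure, with a difference of 0.07 (interval -0.21 to 0.36). Lamc1 read 9.62, 9.69 and 9.80 in controls and 9.74, 9.75 and 9.82 on exposure, a difference of 0.06 (interval -0.18 to 0.31).

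For Lamb1 the groups did not overlap at 48 h, and whether its difference was unlike that of its partners was not tested. Its control arrays read 9.88, 9.90 and 9.96 and its exposed arrays 10.08, 10.09 and 10.15. The difference of 0.19 had an unadjusted interval of 0.03 to 0.36 and did not pass over all genes (adjusted p = 0.152). Lama5, at 8.26 to 8.28 in controls and 8.33 to 8.46 on exposure, was the other member whose groups did not overlap upward, as in 12.3% of all genes. At an unadjusted p under 0.05 there were 2 of 9 members, Lamb1 and Lama3, where 23.3% of all genes had one. Lama3, the epithelial alpha chain, had a difference of 0.29 (adjusted p = 0.114) and passed in 1 of 13 alternatives, without exposed replicate 1 (0.41, adjusted p = 0.0320).

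At 72 h, 0 of the 9 passed limma's threshold either, at a time when 0.00902% of all genes did. Unadjusted p-values under 0.05 occurred for 5 of the 9: Lama1, Lamb1 and Lamc1 with positive differences, and Lama2 and Lama4 with negative ones, where 9.12% of all genes had one. Without exposed replicate 3 it was 2 of the 9, where 6.05% of all genes had one. The median difference of the 9 was -0.05, against 0.00 over all genes.

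Lama1 read 9.21, 9.26 and 9.11 in the controls at 72 h and 9.45, 9.63 and 10.20 on exposure. Every exposed array lay above the controls, and replicate 3, the array with few heart markers, was the highest. The difference of 0.57 (interval 0.28 to 0.85) had an adjusted p of 0.148. Without exposed replicate 3 it was 0.35 (adjusted p = 0.555), and without exposed replicate 1 it was 0.72 and passed (adjusted p = 0.0308).

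Lamb1 showed the same arrangement, with 9.95, 9.96 and 10.02 in controls and 10.10, 10.13 and 10.43 on exposure at 72 h. The groups were apart, as in 7.27% of all genes in the upward direction. Its difference of 0.24 (adjusted p = 0.324) became 0.13 without exposed replicate 3. For Lamc1 the groups overlapped, at 9.67, 9.69 and 9.81 against 9.69, 9.93 and 10.32. The difference of 0.26 (adjusted p = 0.516) became 0.09 without exposed replicate 3.

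Lama4, the vessel-wall chain, pointed the other way. It read 6.16, 5.92 and 6.08 in controls and 5.77, 5.66 and 5.33 on exposure at 72 h, so every exposed array was below every control, as in 7.51% of all genes. The difference of -0.47 (interval -0.75 to -0.18) had an adjusted p of 0.263, and without exposed replicate 3, the lowest array, it was -0.34 (adjusted p = 0.762). Endothelial markers summed to 1575, 1288 and 802 in these 3 exposed arrays and to 1739, 1776 and 2047 in the controls. Of these 9, 0 passed limma's threshold and all 9 had differences below 0. Smooth muscle markers summed to 1499, 1238 and 514, against 2027, 2106 and 2395. Of these 4, 0 passed limma's threshold, 3 had differences below 0 and 1, Myh11, lay above. Acta2, which made up most of this sum, ran from 8.60 to 10.41 on exposure and from 10.88 to 11.14 in controls. Mesenchyme markers, of which 0 of 7 passed limma's threshold and 3 of 7 had an unadjusted p under 0.05, all 7 with differences below 0, summed to 1603, 1404 and 1165, against 1675, 1632 and 1707. The exposed sums of all 3 lists lay below the controls, and their part in the Lama4 values was not tested. Lama2, the muscle chain, read 5.70, 5.58 and 5.46 in controls and 5.50, 5.24 and 5.25 on exposure, and its difference of -0.25 had an adjusted p of 0.374.

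**Figure D2:**
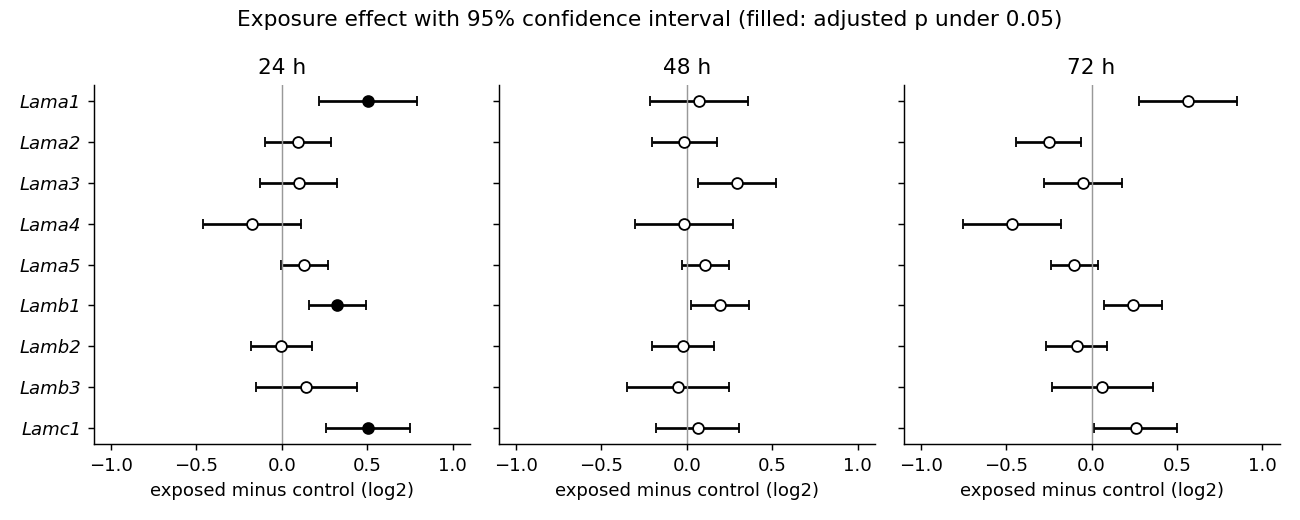
Exposed minus control difference in log2 signal (x axis) of the 9 laminin genes at 24, 48 and 72 h, with 95% confidence intervals from limma. Filled points passed an adjusted p under 0.05, which were Lama1 at 0.50, Lamb1 at 0.32 and Lamc1 at 0.50, all at 24 h.

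Whether the exposure effect itself changed with time was tested as a difference of differences. From 24 to 48 h the effect on Lama1 moved by -0.43 (interval -0.84 to -0.03, adjusted p = 0.625) and that on Lamc1 by -0.44 (interval -0.78 to -0.09, adjusted p = 0.540). For Lamb1 the movement was -0.13 (adjusted p = 0.848). From 48 to 72 h the effect on Lama1 moved by 0.49 (interval 0.09 to 0.90, adjusted p = 0.255), and by 0.27 without exposed replicate 3 at 72 h (adjusted p = 0.375). None of the 9 members passed limma's threshold in any of the 3 such comparisons, in which 0%, 0.0947% and 0.496% of all genes did. At an unadjusted p under 0.05 there were 2 members between 24 and 48 h, 4 between 48 and 72 h and 2 between 24 and 72 h, where 7.67%, 14% and 14.3% of all genes had one. Without exposed replicate 3 at 72 h the latter counts of members were 2 and 3. The presence of a call at 24 h and its absence later is thus not shown to be a change of effect.

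Over time in the control embryoid bodies, the laminin genes moved in different directions. Between 24 and 72 h, 3 of the 9 rose (Lama2, Lama4 and Lamb2) and 1 fell (Lama5), where 13.1% of all genes rose and 14.3% fell. The trimer chains Lama1, Lamb1 and Lamc1 had differences of -0.27, -0.13 and 0.04 over this span and did not pass.

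Lama4 had the widest range of the 9. Control arrays read 4.64, 4.93 and 5.07 at 24 h, 5.95, 6.02 and 5.51 at 48 h, and 6.16, 5.92 and 6.08 at 72 h. Most of the increase lay between 24 and 48 h. It rose by 0.94 ± 0.14 (SE) over that interval (adjusted p = 0.000154) and by 1.17 ± 0.14 (SE), or 2.25-fold, over the whole span (adjusted p = 5.4e-06). From 24 to 48 h Lama4 and Lamb2 were the 2 members past the threshold, where 13.6% of all genes were. The step from 48 to 72 h, of 0.23, did not pass (adjusted p = 0.396).

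Lamb2 rose at each step of the control course. Its arrays read 6.28, 6.23 and 6.47 at 24 h, 6.59, 6.68 and 6.60 at 48 h, and 6.91, 7.00 and 7.12 at 72 h, with no overlap between neighbouring times, as in 15.2% of all genes upward for the first step and 12.4% for the second. The steps were 0.29 (adjusted p = 0.0276) and 0.39 (adjusted p = 0.00982), and the sum over the course was 0.68, or 1.60-fold (adjusted p = 1.16e-05). Between 48 and 72 h it was the only called member, where 6.53% of all genes passed, and that call was lost without control replicate 3 at 72 h. The call of the first step passed in 7 of 14 alternatives and was lost without control replicate 1 or 2 at 24 h or without any 1 control array at 48 h. Lama4 was then the only called member of that step, joined by Lamb3 in the fit without control replicate 2 at 24 h.

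Lama5, the broad epithelial chain, fell by 0.20 between 24 and 72 h in controls (adjusted p = 0.0276), from 8.35 ± 0.027 (SD, n = 3) to 8.14 ± 0.13 (SD, n = 3), a call lost without control replicate 2 or 3 at 24 h or replicate 1 or 2 at 72 h. Lama2 rose by 0.35 over the same span (adjusted p = 0.00703), from 5.23 ± 0.069 (SD, n = 3) to 5.58 ± 0.12 (SD, n = 3).

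In the exposed embryoid bodies, Lama4, Lamb2 and Lama5 passed in the same directions as in controls. Comparisons of this course with 24 h also set tagged against untagged arrays, which cannot be told apart from time. Between 24 and 72 h, Lama4 rose by 0.88 (adjusted p = 0.000129), Lamb2 rose by 0.60 (adjusted p = 5.91e-05) and Lama5 fell by 0.44 (adjusted p = 0.000102), where 14.4% of all genes rose and 10.6% fell. Lama5 read 8.48, 8.47 and 8.49 at 24 h, 8.36, 8.46 and 8.33 at 48 h, and 8.01, 8.07 and 8.04 at 72 h. Its fall lay mainly in the last step, by 0.34 (adjusted p = 0.00352). Lama2, which rose in controls, had a difference of 0.01 in the exposed course (adjusted p = 0.966), and the difference between the courses, -0.35, did not pass (adjusted p = 0.214).

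The trimer chains fell between 24 and 48 h in the exposed course, from their raised levels. Lama1 fell by 0.61 (adjusted p = 0.00702), Lamb1 by 0.32 (adjusted p = 0.0145) and Lamc1 by 0.42 (adjusted p = 0.0289), and in each the 3 arrays at 48 h lay below the 3 at 24 h, as in 12.1% of all genes. With the rise of Lama4 (1.11, adjusted p = 5.31e-05) and of Lamb2 (0.28, adjusted p = 0.0479), 5 of the 9 passed in this step, where 10.1% of all genes did. Without exposed replicate 3 at 24 h or exposed replicate 1 at 48 h the count was 2, and without exposed replicate 1 at 24 h or replicate 2 or 3 at 48 h it was 3. Lama1 and Lama4 passed in each of these fits, and Lamc1 was lost without any 1 of the 6 arrays. From 48 to 72 h, 2 of the 9 passed (Lamb2 up by 0.32, adjusted p = 0.0232, and Lama5 down), where 10.2% of all genes did. The call of Lamb2 in this step was lost without exposed replicate 2 or 3 at 48 h or any 1 exposed array at 72 h, which left 1 or, where Lama1 passed (without exposed replicate 1 at 72 h), 2 members. Lama1 had a difference of 0.41 in that step (adjusted p = 0.0653), and of 0.19 without exposed replicate 3 at 72 h (adjusted p = 0.235).

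How the trimer compared at 72 and 24 h changed with the array that had few heart markers. With all arrays, Lama1, Lamb1 and Lamc1 at 72 h differed from 24 h by -0.20, -0.21 and -0.20 in the exposed course and did not pass. Without exposed replicate 3 at 72 h the differences were -0.42, -0.32 and -0.38 and all 3 passed (adjusted p of 0.00361, 0.00277 and 0.00669), which raised the called members of that comparison from 3 to 6.

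Ordered by group mean, Lama1 was highest in exposed embryoid bodies at 24 h (9.96), then at exposed 72 h (9.76), control 24 h (9.46), exposed 48 h (9.35), control 48 h (9.28) and control 72 h (9.19). Arrays of neighbouring groups in this order overlapped, apart from those of control 24 h (9.38 to 9.50) and exposed 48 h (9.34 to 9.36). Lamb1 and Lamc1 were also highest in the exposed group at 24 h, at 10.43 and 10.18. For Lamc1 the 3 control groups lay at 9.68, 9.70 and 9.72, within their own spread of each other. Lama4 stood at 6.05 in controls at 72 h, then at 5.82 and 5.81 in controls and exposed bodies at 48 h, 5.59 at exposed 72 h, and 4.88 and 4.70 in controls and exposed bodies at 24 h. Control and exposed arrays overlapped at 24 and 48 h and not at 72 h. For Lamb2 the order was one of time, from 7.01 and 6.92 at 72 h through 6.62 and 6.60 at 48 h to 6.33 and 6.32 at 24 h, with control and exposed arrays overlapping at each time and no overlap between times.

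Lama3 and Lamb3, chains of the epithelial anchoring laminin, passed in none of the exposure or time comparisons. Lama3 ran from 4.74 to 5.27 over the 18 arrays, and its group means spanned 0.29. Lamb3 ran from 5.09 to 5.98, with its widest spread among the control arrays at 24 h (SD 0.36), and its largest step was 0.41 between 24 and 48 h in controls (adjusted p = 0.0618). Mean signals of Lama2, Lama3, Lama4 and Lamb3 were below the median gene of the arrays, with 42.3%, 34.0%, 44.3% and 48.7% of genes dimmer. Whether such probe sets lay above background was not measured here. In contrast, 96.3% of genes were dimmer than Lama1, 98.4% than Lamb1 and 97.6% than Lamc1.

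The trimer chains correlated with each other across arrays. Over the 18 arrays Lama1 correlated with Lamb1 at r = 0.934 and with Lamc1 at r = 0.918, and Lamb1 with Lamc1 at r = 0.908. The arrays share their groups, so the values were also taken as deviations from the group means. These gave r = 0.890, 0.899 and 0.949, and 0.600, 0.603 and 0.936 when the 3 exposed arrays at 72 h were left out. Over those 15 arrays the pair of Lamb1 and Lamc1 had the highest of the 3 values. Deviations from group means keep any offset shared by arrays of the same replicate number. In both Lamb1 and Lamc1, replicate 3 was the highest array of each of the 6 groups, and its part in these correlations was not tested.

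Type IV collagen genes came closest to Lama1 and Lamc1 in pattern, a comparison chosen after the values were seen. Predicted loci (symbols of the Gm, Rik and LOC forms) were left out of the rankings in this paragraph. Among all other named genes, the highest correlation with Lama1 over 18 arrays was that of Col4a2 (r = 0.953). The highest with Lamc1 was that of Col4a1 (r = 0.956). For Lamb1 it was Lama1 (r = 0.934), followed by Col4a2 (r = 0.932). As deviations from the group means, Lama1 and Col4a2 correlated at r = 0.892 and Lamc1 and Col4a1 at r = 0.950, and at 0.466 and 0.819 without the 3 exposed arrays at 72 h. These values, too, keep any offset shared by a replicate number. Col4a1 and Col4a2 encode the chains of the most common type IV collagen and lie head to head on the same chromosome. Lama4 was the only member whose group means differed by at least 1 log2 unit, at 1.35. Its closest genes over the 18 arrays were Tbx20 (r = 0.973), a heart transcription factor, Jcad (r = 0.966), a protein of endothelial junctions, and Frmd6 (r = 0.964). Lama4 and Lama1 correlated at r = -0.702.

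**Figure D3:**
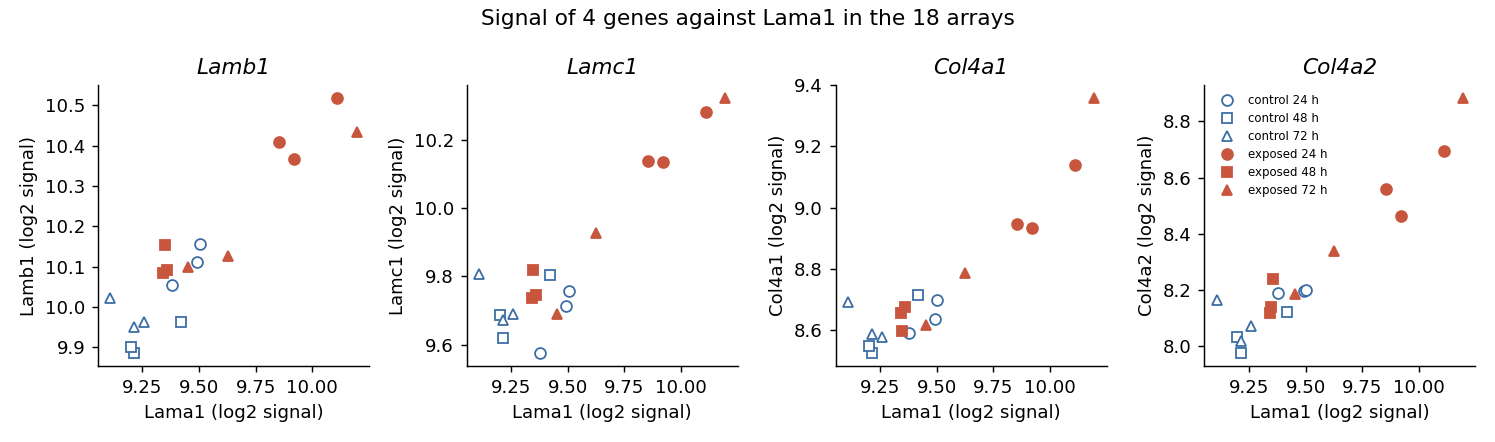
Log2 signal of Lamb1, Lamc1, Col4a1 and Col4a2 (y axes) against that of Lama1 (x axis) in each of the 18 arrays, with open blue symbols for control and filled red symbols for exposed arrays, and shapes for the 3 times. The 3 exposed arrays at 24 h and exposed replicate 3 at 72 h lie at the upper right in every panel, with Lama1 at 9.85 to 10.20.

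Of 19 genes whose products join laminin in the basement membrane, 4 rose and 0 fell at 24 h: Nid1, Nid2, Agrn and Frem1. Of all genes, 1.42% rose and 5.43% fell. The median of the 19 was 0.15, against -0.01 over all genes. Nid1, a nidogen that bridges laminin and type IV collagen, rose by 0.37 (adjusted p = 0.0247), from 8.38, 8.48 and 8.56 in controls to 8.68, 8.86 and 9.01. Its relative Nid2 rose by 0.31 (adjusted p = 0.0128), from 9.33, 9.19 and 9.32 to 9.65, 9.50 and 9.63. In both the exposed arrays lay above the controls, as in 8 of the 19 partners and in 9.23% of all genes.

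Agrn, the heparan sulfate proteoglycan agrin, rose by 0.31 at 24 h (adjusted p = 0.0101), from 7.94, 7.93 and 8.01 to 8.18, 8.31 and 8.32. Frem1, a matrix protein of the epidermal basement membrane, rose by 0.47 (adjusted p = 0.0242), from 6.38, 5.92 and 6.40 to 6.60, 6.86 and 6.66. The groups were apart in both genes. Col4a1 read 8.59, 8.64 and 8.70 in controls and 8.94, 8.93 and 9.14 on exposure, also without overlap, but its difference of 0.36 (adjusted p = 0.114) did not pass. Col4a2 had a difference of 0.38 (adjusted p = 0.0854).

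At 48 and 72 h, 0 of the 19 partners passed limma's threshold, with 8 and 4 at an unadjusted p under 0.05, against the 23.3% and 9.12% of all genes. Without exposed replicate 3 at 72 h the 4 became 1. Nid1 had a difference of -0.22 at 48 h (adjusted p = 0.161), with its exposed arrays at 9.09, 8.94 and 9.10 below the controls at 9.27, 9.24 and 9.28. Its effect at 48 h minus that at 24 h was -0.60 and did not pass over all genes (adjusted p = 0.246). In the exposed array with few heart markers at 72 h, Col4a1 read 9.36, against 8.62 and 8.79 in the other 2 exposed arrays, and Lama1, Lamb1 and Lamc1 also had their highest values of that group in it. Over the control course from 24 to 72 h, 10 of the 19 partners rose and 0 fell, where 13.1% of all genes rose and 14.3% fell. In the exposed course 10 rose and 3 fell, where 14.4% of all genes rose and 10.6% fell. The count of 4 at 24 h was 2 without control or exposed replicate 2, 3 or 4 without any other array of 24 h, and 0 when only these 6 arrays entered the fit.

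Among 12 measured receptors and linkers of laminin, 2 rose and 0 fell at 24 h, where 1.42% of all genes rose and 5.43% fell. Itga3, the integrin chain that pairs with Itgb1 to bind laminin, rose by 0.30 (adjusted p = 0.00806), from 6.36, 6.42 and 6.46 in controls to 6.75, 6.71 and 6.69. Utrn, the dystrophin relative utrophin, rose by 0.22 (adjusted p = 0.0361), from 8.80 ± 0.052 (SD, n = 3) to 9.02 ± 0.011 (SD, n = 3). The groups did not overlap in either gene, as in 9.23% of all genes upward. The call of Itga3 was kept in 13 and that of Utrn in 5 of 14 alternatives. Without any 1 array of 24 h, 1 of the 12 was called.

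Bcam, a surface receptor for Lama5-containing laminins, was the only one of the 12 past the threshold at 48 h, where 6.08% of all genes were. It fell by 0.36 (adjusted p = 0.0482), from 7.84, 7.89 and 7.80 in controls to 7.61, 7.47 and 7.37. At 24 h its difference was -0.29 (adjusted p = 0.107), again with all exposed arrays below the controls. At 72 h 0 of the 12 passed limma's threshold, with 3 at an unadjusted p under 0.05, and the smallest p was that of Itga1, a collagen and laminin integrin, at -0.63 (adjusted p = 0.202), which was -0.39 without exposed replicate 3 (adjusted p = 0.688). Without that array the 3 became 2, against the 9.12% of all genes with all arrays and 6.05% without it. The call of Bcam was kept in 5 of 14 alternatives, and of the fits that left out 1 array of 48 h it was kept only without exposed replicate 1.

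Lamc3, a further laminin gamma chain, had exposure differences of 0.23, 0.08 and 0.18 at the 3 times (adjusted p of 0.362, 0.785 and 0.768).

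Transcription factors of extraembryonic endoderm, a lineage known for making embryonic laminin, did not pass at any exposure time. Of 6 measured, 0 passed limma's threshold at 24, 48 and 72 h, and 0, 1 and 1 had an unadjusted p under 0.05, as 21.2%, 23.3% and 9.12% of all genes did. The smallest p at 24 h was that of Sox7, at 0.12 (adjusted p = 0.470). At 48 h it was Sox17, at -0.20 (adjusted p = 0.147), and at 72 h Gata6, at -0.37 (adjusted p = 0.250), or -0.22 without exposed replicate 3 (adjusted p = 0.753). Over the control course from 24 to 72 h, 2 of the 6 fell, Sox17 and Foxa2, where 14.3% of all genes fell.

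Of 8 parietal endoderm markers, 2 rose and 0 fell at 24 h, where 1.42% of all genes rose and 5.43% fell. The 2 were Pth1r, by 0.34 (adjusted p = 0.0284), and Krt8, by 0.27 (adjusted p = 0.0385). Pth1r passed in 8 and Krt8 in 6 of 14 alternatives, and each in 1 of the 6 fits without 1 array of 24 h. Krt8 is also an epithelium marker, and of 6 such markers 1 rose at 24 h, 3 had differences above 0 and 3 below. The summed linear signal of the 8 parietal markers ran from 3170 to 3263 in controls and from 3224 to 3629 on exposure. Visceral endoderm markers summed to 2960 to 3537 in controls and 3141 to 3546 on exposure, so the ranges overlapped. Pluripotency markers summed to 1060 to 1273 in controls and 930 to 1111 on exposure. Of these 7, 5 had differences above 0 and 2 below. Nanog, which had the largest share of the sum, ran from 8.93 to 9.35 in controls and from 8.53 to 8.76 on exposure. Definitive endoderm markers summed to 1617 to 1675 in controls and 1410 to 1579 on exposure, without overlap. Of these 6, 3 had differences above 0 and 3 below, and 0 passed limma's threshold at 24 h. An unadjusted p under 0.05 occurred for 2 of the 6, where 21.2% of all genes had one. The part of these cell types in the laminin values was not tested.

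**Figure D4:**
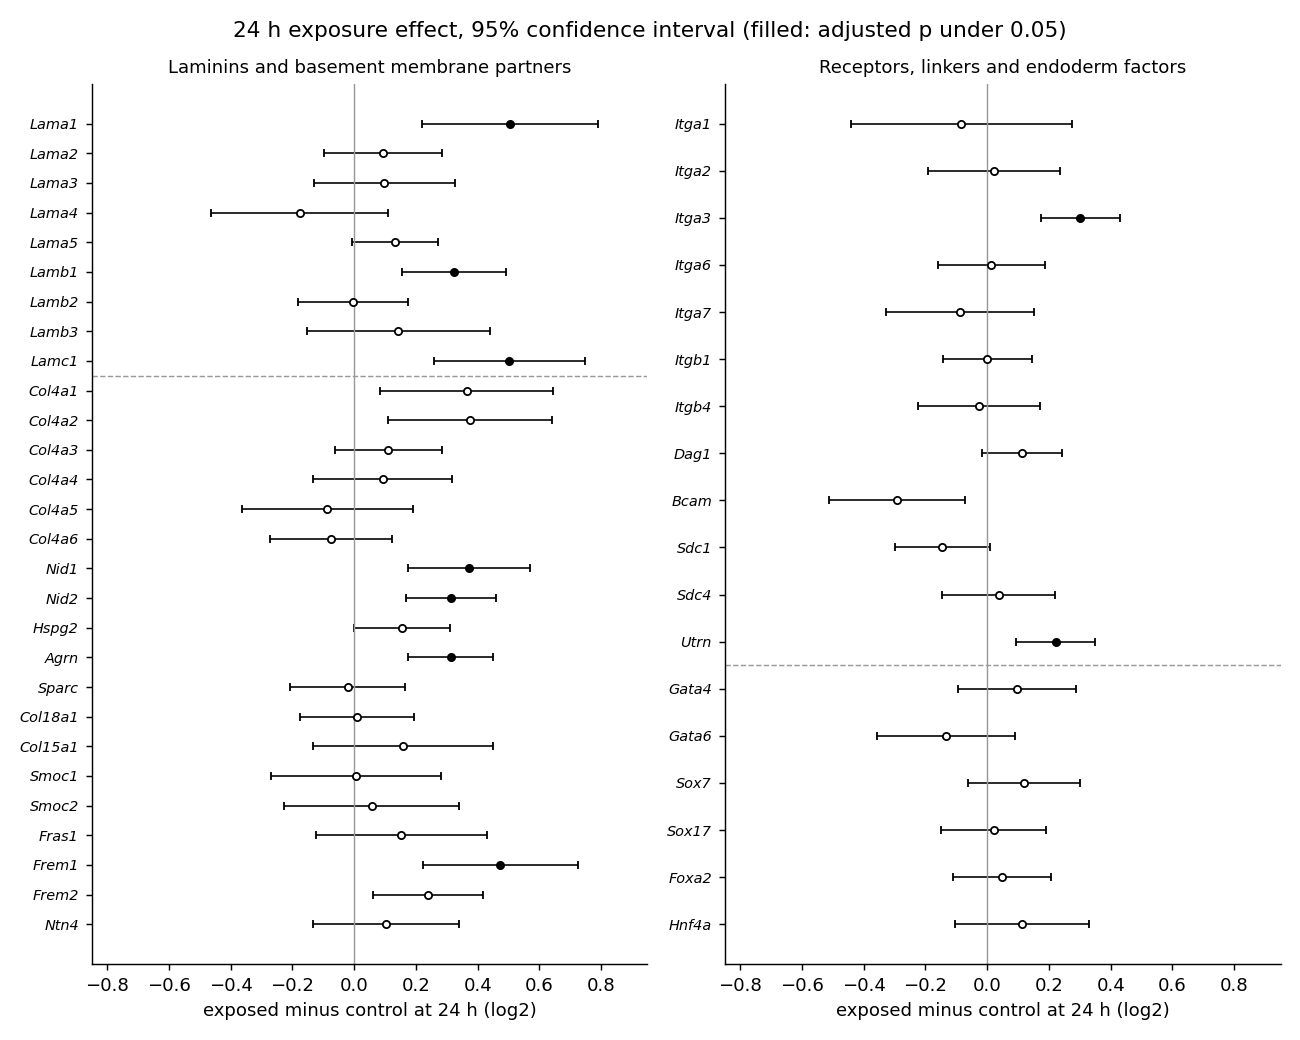
Exposed minus control difference in log2 signal at 24 h (x axis) with 95% confidence intervals, for the laminin genes and basement membrane partners (left, split by a dashed line) and for receptors, linkers and endoderm factors (right). Filled points passed an adjusted p under 0.05, which were 3 laminins, 4 partners, 2 receptors or linkers and 0 endoderm factors.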

How the data were processed

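Biotin-labelled total RNA of 18 samples was read on Affymetrix arrays, 1 sample to an array. The authors deposited log2 signals of 41345 probe sets, which the submitters' processing notes tie to RMA and to Affymetrix Expression Console version 1.3. A build for the arrays was not given in the sources, and the printed coordinates are those of RefSeq windows. The sorted signals of the arrays were nearly the same (largest gap 0.19), so a change is relative to other genes and a shift shared by most genes would not be seen. No detection values were used, and the number of arrays limits the precision.

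Single gene symbols from the platform annotation named 23521 probe sets, 1814 had several and 16010 were not listed. The brightest probe set stood for a gene (22180 genes). limma 3.58.1 in R 4.3.3 fitted 1 mean per group over all 18 arrays (12 residual and 4.35 prior degrees of freedom), with two-sided tests, Benjamini-Hochberg adjustment within each comparison and a threshold of 0.05. Printed p-values are limma's, and intervals are 95% and unadjusted. Comparisons at different times within a course share arrays. The labels name biological replicates without saying whether cultures were separate, so p-values measure only the spread between these samples, which may be technical.

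The 9 members and all lists were chosen with earlier results of these data known. All members were named, and per list and exposure comparison up to 4 called genes or the one with the smallest p, plus the 3 genes most like a member spanning at least 1 log2 unit. Other genes are said to be chosen after their values were seen, as were Nid1, Col4a1, Col4a2 and Bcam outside the comparison that called them, and Pth1r, Krt8 and Nanog among the markers. Tested on simulated data of 22180 genes, the fit recovered 64 of 100 genes changed by 1.5-fold and 99 of 100 changed by 2-fold. This was for the 24 h comparison, with 6 false calls among the unchanged genes. The simulated noise was independent between genes, with no deviation shared within an array, so recovery and false calls in the real arrays may differ. Alternatives were cyclic loess, the mean of probe sets, a filter at the median signal, all probe sets, trend and robust options, array weights, only the groups compared, the replicate number as a block, and each array left out.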

Additional observations from a re-analysis of the deposited data

How the results depend on the processing

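Of 44 member results, 37 kept their direction in all alternatives run, and 10 of the 20 past the threshold passed in all of them. At 24 h the 3 called laminins became 0 when only the groups compared entered the fit, a setting with fewer samples, and 0 to 2 without single arrays. At 48 h and at 72 h the count of 0 became 0 to 1 without single arrays. For controls, 48 against 24 h, the 2 called became 1 with the median filter, which leaves out Lama4. The count was also 1 with all probe sets tested and with only the groups compared. It was 4 with trend and robust options, and 1 to 2 without single arrays. The count of 1 for 72 against 48 h was 0 to 1 without single arrays, and the 4 for 72 against 24 h became 2 with the median filter, which leaves out Lama2 and Lama4. In the exposed course, the 5 called at 48 against 24 h became 3 with all probe sets and with only the groups compared, and 2 to 4 without single arrays. The 2 at 72 against 48 h became 1 with only the groups compared and 1 to 2 without single arrays, and the 3 at 72 against 24 h ran from 3 to 6. Where no construction is named, the cause was not tested.

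Differences near 0 changed sign, none of them called. Lamb2 at 24 h, at -0.0035, became 0.041 with cyclic loess and with array weights and ran from -0.073 to 0.066 without single arrays. Lamb2 at 48 h, at -0.022, became 0.020 with cyclic loess and ran from -0.082 to 0.023. Without single arrays, Lamb3 at 24 h ran from -0.046 to 0.31, Lama2 at 48 h from -0.069 to 0.067, Lama4 at 48 h from -0.17 to 0.081, Lama3 at 72 h from -0.099 to 0.035 and Lamb3 at 72 h from -0.063 to 0.14. The number of all genes called at 24 h ran from 121 to 2279, and at 72 h from 0 to 81. Alternatives for the partner, receptor and factor lists and for Pth1r and Krt8 were added after seeing the data. So were unadjusted counts and changes of the exposure effect without exposed replicate 3 at 72 h.

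Taken across all genes, same-numbered control and exposed arrays did not deviate together (r from -0.14 to 0.12), so the numbers were not taken to pair samples. For Lamb1 and Lamc1, however, replicate 3 was the highest array in each of the 6 groups. A deviation shared by replicate number is thus not excluded for these genes. The block lowered the SE of their 24 h differences, from 0.079 to 0.066 for Lamb1 and from 0.116 to 0.088 for Lamc1. With the replicate block, 3 laminins passed at 24 h, with adjusted p of 0.0263 for Lama1, 0.0128 for Lamb1 and 0.00625 for Lamc1, and 1297 genes in all, against 1521 without it. The block added the calls of Lama1 at exposed 72 against 48 h (adjusted p = 0.0479) and Lamb1 at exposed 72 against 24 h (0.0308), left 1 of the 2 called receptors at 24 h, and ended the call of Lamb2 at exposed 48 against 24 h (0.0640), where 4 of 9 then passed in place of 5.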
